A study of Homo sapiens with 6 samples.

Results

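The DHRS group of short-chain dehydrogenases/reductases was followed through the RNA-sequencing libraries of U251 cells, an established human glioma line. The 10 genes, DHRS1, DHRS2, DHRS3, DHRS4, DHRS4L2, DHRS7, DHRS9, DHRS11, DHRS12 and DHRS13, were taken by symbol from the 60612 gene identifiers of the count table, and all 10 were found. The members were selected on these same counts, because DHRS2 was nearly 3-fold higher after TEAD3 knockdown, so their differences between the groups are given as descriptions, with no p-value. Intervals for them show the spread of the fit, and nothing is read from how many were called. There were 3 TEAD3 knockdown libraries and 3 Normal Control libraries. Knockdown was by transient transfection, per the labels' protocols, which name both a plasmid vector for TEAD3 and an siRNA and give about 36 h as the time at which its effect was checked. What the controls received is not stated in the labels. The labels do not tell whether the 3 libraries of a group had separate cultures as their source. A p-value therefore covers only library-to-library spread, part or all of which may be technical.

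Short-chain dehydrogenases/reductases are a large family of enzymes that bind NAD(H) or NADP(H) on a Rossmann fold and move hydride between alcohols and carbonyl compounds, among them steroids, retinoids, prostaglandins and products of lipid oxidation. Retinoid chemistry is the best-known role of several DHRS proteins: retinol dehydrogenases make retinaldehyde, a precursor of retinoic acid, and retinaldehyde reductases such as DHRS3 turn it back to retinol. By GENCODE 29 (GRCh38), 5 of the 10 genes lie on chromosome 14. DHRS2 (chr14:23630115-23645639, plus strand), DHRS4 (chr14:23953586-23969279, plus), DHRS4L2 (chr14:23969874-24006408, plus) and DHRS1 (chr14:24290598-24299833, minus) lie in one stretch, and DHRS7 (chr14:60144120-60169856, minus) lies apart. DHRS3 is at chr1:12567910-12617731 (minus), DHRS9 at chr2:169064789-169096167 (plus) and DHRS12 at chr13:51767993-51804157 (minus). DHRS11 (chr17:36591798-36600806, plus) and DHRS13 (chr17:28897781-28903071, minus) are on chromosome 17. TEAD3, the knockdown target, encodes a DNA-binding partner of the Hippo pathway coactivators YAP and TAZ.

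The libraries held between 58344026 and 64808615 counts. TEAD3 itself was at 4.70, 8.35 and 6.08 CPM (counts scaled to library size with TMM) in knockdown replicates 1 to 3, against 14.9, 20.3 and 21.0 CPM in control replicates 1 to 3, at -1.55 on the log2 scale of knockdown over control (edgeR adjusted p = 0.0114). That call was lost without control replicate 3 (adjusted p = 0.0541), knockdown replicate 1 (0.0532) or knockdown replicate 3 (0.0938). The glial and mesenchymal markers VIM, CD44, NES and SOX2 were at 114 CPM or more in every library, whereas GFAP and S100B, which define mature astrocytes, stayed at or below 1.80 CPM. GFAP was between 0.375 and 0.796 CPM in the knockdown and between 1.25 and 1.80 CPM in the controls (edgeR adjusted p = 0.143). Of the markers of other cells, PTPRC, PECAM1, RBFOX3 and ALB stayed at or below 0.658 CPM, and EPCAM lay between 0.625 and 1.28 CPM. Control replicates 1 and 2 stood apart by base composition. Across 17505 genes, a gene's deviation in the library was set against the GC content of its transcript. The Spearman correlation was -0.366 and 0.454 in control replicates 1 and 2 and between -0.135 and 0.105 in the other 4 libraries. With transcript length it was -0.227, -0.0795 and -0.0520 in knockdown replicates 1 to 3 and 0.130, -0.0512 and 0.157 in control replicates 1 to 3.

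DHRS2, also known as Hep27, was the member with the largest difference. It encodes a dicarbonyl reductase that is imported into mitochondria, and a processed form has been described in the nucleus, where it binds MDM2. DHRS2 was at 32.3, 36.4 and 40.1 CPM in knockdown replicates 1 to 3, against 12.9, 12.2 and 13.1 CPM in control replicates 1 to 3. Every knockdown library lay above every control, and the lowest knockdown library stood far above the highest control. The group means were 36.3 ± 3.93 CPM in the knockdown and 12.7 ± 0.494 CPM in the controls (SD, n = 3 each), a 2.85-fold difference with a 95% interval of 2.36 to 3.44 (log2 fold change 1.51, SE 0.123). In bulk RNA, a difference in the number of cells that express a gene and one in RNA per cell cannot be told apart. The spread among knockdown libraries, a coefficient of variation of 10.8%, exceeded the 2.08% that counting alone gives at 2322 reads a library. Among controls it was 3.88%, close to the 3.59% from counting at 774 reads. Ranked by log2 fold change, DHRS2 stood at percentile 98.8 of the 17723 genes that passed the filter on low counts.

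The promoter window of DHRS2 differed from those of the other expressed members that had one. DHRS7 had no window in the RefSeq table and was not compared. Promoter sequence played no part in choosing the genes. The window below covers 250 bases before to 50 after the RefSeq start (GRCh38.p14, chr14:23629865-23630164, plus strand), and the capitals mark the hexamer TATAAA, the sequence of the TATA box, an AT-rich element that positions transcription initiation at a minority of promoters.
DHRS2: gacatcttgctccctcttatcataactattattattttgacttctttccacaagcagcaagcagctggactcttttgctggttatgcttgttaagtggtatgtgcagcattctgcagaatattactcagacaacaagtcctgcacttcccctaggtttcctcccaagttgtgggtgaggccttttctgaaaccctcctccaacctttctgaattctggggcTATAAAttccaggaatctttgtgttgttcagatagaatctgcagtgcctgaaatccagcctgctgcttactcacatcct

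The hexamer, searched on both strands, began 29 bases before the DHRS2 start. A GC content of 44.0% put the DHRS2 window at percentile 18.8 of 35116 human promoter windows, whose median was 58.7%. Windows of the other 7 expressed members in the RefSeq table, DHRS1, DHRS3, DHRS4, DHRS4L2, DHRS11, DHRS12 and DHRS13, held between 56.0% and 74.7% GC and no TATAAA on either strand. DHRS9, the member with almost no transcript, was the other one with AT-rich windows (31.3% to 39.3% GC), and 3 of its 4 windows held TATAAA on one strand or the other. Across all windows TATAAA was present on either strand in 11.5%, and within the 40 bases before the start on the gene's own strand in 2.44%. The core TEAD motif GGAATG, searched on both strands, was not in the DHRS2 window. It was in 2 of the 3 DHRS3 windows, in none of the other members' windows and in 14.0% of all windows. These are matches of letters and do not show binding.

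**Figure D1:**
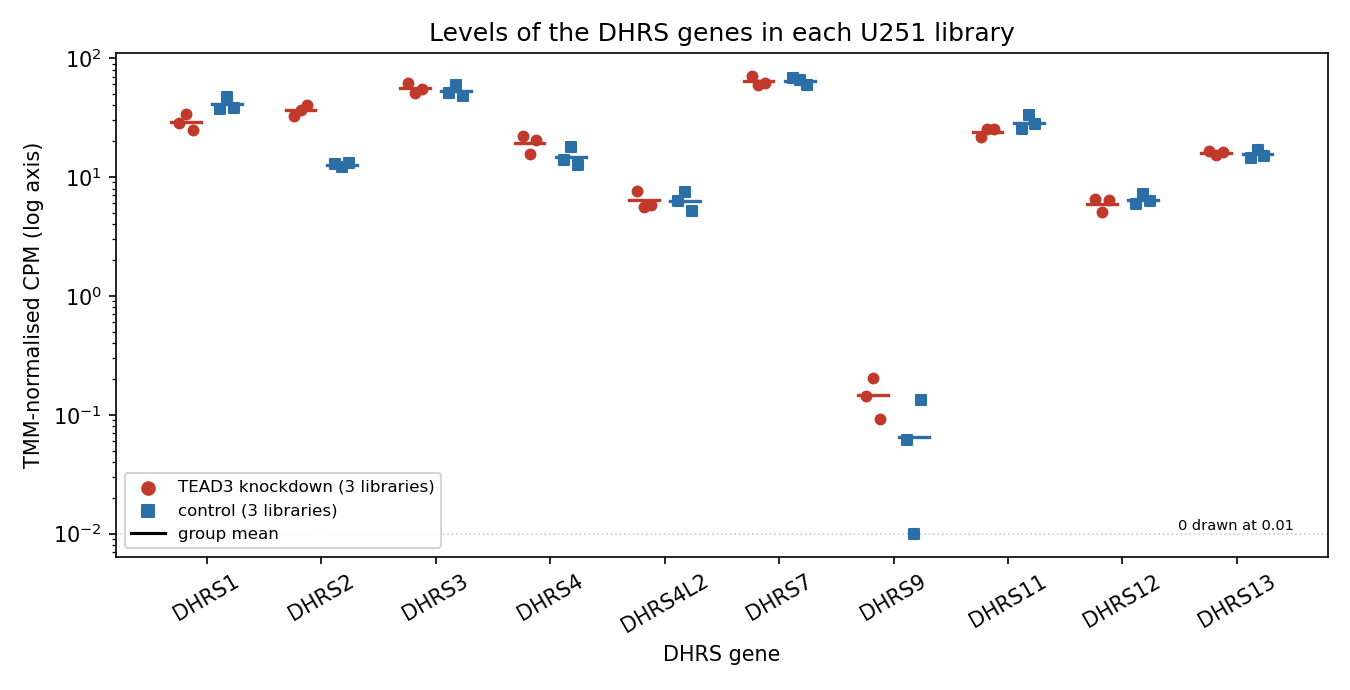
Level of each DHRS gene in each library, in TMM-normalised CPM on a log axis, with TEAD3 knockdown libraries as circles on the left and control libraries as squares on the right of each pair; lines are group means. DHRS2 has its knockdown libraries at 32.3 to 40.1 CPM above its controls at 12.2 to 13.1 CPM, DHRS1 shows the opposite order, and DHRS9 lies below 0.21 CPM everywhere.

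DHRS1 showed the opposite order to DHRS2. It encodes a reductase of the endoplasmic reticulum that acts on steroids and foreign carbonyl compounds. DHRS1 was at 28.5, 33.8 and 24.7 CPM in knockdown replicates 1 to 3, against 37.1, 47.4 and 38.0 CPM in the controls. The groups did not overlap, although knockdown replicate 2 came close to control replicate 1. The means were 29.0 ± 4.57 CPM in the knockdown and 40.8 ± 5.68 CPM in the controls (SD, n = 3 each). On the log2 scale the difference was -0.49 with an unadjusted 95% interval of -0.81 to -0.18.

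Counted over the family, 9 of the 10 genes passed the filter on low counts. A gene is called here when its edgeR adjusted p, over all genes tested, is under 0.05. Of the 9, 1 was called, DHRS2, where 0.655% of all genes tested were called. The members were chosen in this contrast, so that count is no evidence about them. Groups did not overlap for 2 of the 9, DHRS1 and DHRS2, a share close to the 21.6% among all genes tested. The median log2 fold change was 0.0052 over the 9 and 0.0025 without DHRS2, beside -0.0012 over all genes tested.

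DHRS3 and DHRS9 belong to the retinoid branch, as does DHRS4, which is described with its copies. DHRS3, a retinaldehyde reductase of lipid droplets and the endoplasmic reticulum whose transcript is induced by retinoic acid, was at 61.7, 50.9 and 55.5 CPM in the knockdown, against 50.9, 58.8 and 48.2 CPM in the controls. The 2 sets of libraries were interleaved, and the fold difference was 1.06 with an interval of 0.890 to 1.27. DHRS9, a retinol and 3-alpha-hydroxysteroid dehydrogenase known from epithelia, had only 9, 13 and 6 reads in the knockdown libraries and 4, 0 and 8 reads in the controls. That gene did not pass the filter on low counts, and no fold is given. At these depths 3 reads correspond to between 0.0457 and 0.0529 CPM, a floor that covers counting error only. DHRS9 was at or below 0.203 CPM in every library.

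DHRS4 and DHRS4L2 are neighbouring copies of one gene, lying side by side on chromosome 14 together with DHRS4L1. DHRS4 encodes a peroxisomal NADPH-dependent reductase of retinal and other carbonyl compounds. It was at 22.1, 15.7 and 20.3 CPM in the knockdown, against 13.9, 17.9 and 12.6 CPM in the controls. Knockdown replicates 1 and 3 lay above all controls, and knockdown replicate 2 lay below control replicate 2. The log2 fold change was 0.39 with an unadjusted interval of 0.01 to 0.77. DHRS4L2 was at 7.61, 5.61 and 5.86 CPM in the knockdown, against 6.34, 7.47 and 5.19 CPM in the controls, with the libraries interleaved and a log2 fold change of 0.0052 (interval -0.44 to 0.45).

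How the authors' counting divided reads between these copies is not given in the sources used here. Of all stretches of 100 bases in GENCODE 29 transcripts of DHRS4, 18.8% also occurred in another gene on the same strand, 17.3% in DHRS4L2. For DHRS4L2 the share was 27.9%. Kinship also shows in promoter windows, given here for the DHRS4L2 window with the most bases identical to DHRS4. That window (chr14:23988679-23988978) is at the most downstream DHRS4L2 start, inside the gene. It aligned with the RefSeq window of DHRS4 (chr14:23953520-23953819) over 284 bases, 248 of them identical (87.3%). Both are on the plus strand of GRCh38.p14. The windows at the other DHRS4L2 starts had fewer identical bases. Capitals mark bases that differ or have no partner in the alignment.
DHRS4: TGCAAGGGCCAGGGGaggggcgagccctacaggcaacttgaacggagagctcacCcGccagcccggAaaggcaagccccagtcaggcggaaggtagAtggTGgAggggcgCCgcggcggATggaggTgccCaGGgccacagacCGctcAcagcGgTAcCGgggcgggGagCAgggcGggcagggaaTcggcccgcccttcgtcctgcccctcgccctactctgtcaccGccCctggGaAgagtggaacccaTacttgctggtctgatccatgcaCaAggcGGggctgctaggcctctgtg
DHRS4L2: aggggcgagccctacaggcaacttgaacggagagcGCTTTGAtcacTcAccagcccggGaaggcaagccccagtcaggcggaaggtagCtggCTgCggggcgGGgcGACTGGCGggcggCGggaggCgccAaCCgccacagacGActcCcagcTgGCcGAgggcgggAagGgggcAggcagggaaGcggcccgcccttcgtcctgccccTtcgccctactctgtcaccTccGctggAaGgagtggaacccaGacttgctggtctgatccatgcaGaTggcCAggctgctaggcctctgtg

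A sum over the copies does not depend on how shared reads were divided among them. The sum would still depend on whether such reads were dropped or counted more than once, which is not given in the sources used here. Counts of DHRS4, DHRS4L1 and DHRS4L2 added together gave 30.0, 21.6 and 26.5 CPM in the knockdown, against 20.4, 25.5 and 18.2 CPM in the controls, with a log2 fold change of 0.28 (interval -0.07 to 0.64). Control replicate 2 again lay within the range of the knockdown. DHRS4-AS1, a noncoding RNA read from the opposite strand of this cluster, was at 8.54, 10.0 and 9.78 CPM in the knockdown and at 12.0, 12.3 and 12.1 CPM in the controls. Its groups did not overlap and it was not called (log2 fold change -0.36, edgeR adjusted p = 0.254). Exons of DHRS4-AS1 overlap 331 of the 2305 exonic bases of DHRS4, and whether strand was used in counting is not given in the sources used here, so the levels of both are uncertain.

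The remaining members act on steroids or are little characterised. DHRS7, a reductase of the endoplasmic reticulum with steroid and retinoid substrates, was at 70.9, 59.8 and 61.5 CPM in the knockdown, against 67.5, 65.4 and 59.3 CPM in the controls. The fold difference was 1.00 with an interval of 0.849 to 1.18, and 894 of its 3248 exonic bases overlap PCNX4 on the opposite strand. DHRS11, a cytosolic hydroxysteroid dehydrogenase, was at 21.6, 25.3 and 25.4 CPM in the knockdown, against 25.3, 33.2 and 27.7 CPM in the controls. Control replicate 1 lay just below knockdown replicates 2 and 3, and the log2 fold change was -0.25 (interval -0.55 to 0.04). DHRS12, whose substrates are little known, lay between 5.03 and 6.50 CPM in the knockdown and between 5.90 and 7.17 CPM in the controls, a fold difference of 0.924 (interval 0.697 to 1.22). DHRS13, likewise little characterised, lay between 15.3 and 16.5 CPM in the knockdown and between 14.6 and 17.0 CPM in the controls, a fold difference of 1.03 (0.852 to 1.26). Libraries of the 2 groups were interleaved for both genes. Counts of DHRS12 and DHRS13 are uncertain, since 650 of 3525 exonic bases of DHRS12 overlap a gene on the same strand and 1221 of 2944 exonic bases of DHRS13 one on the opposite strand.

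**Figure D2:**
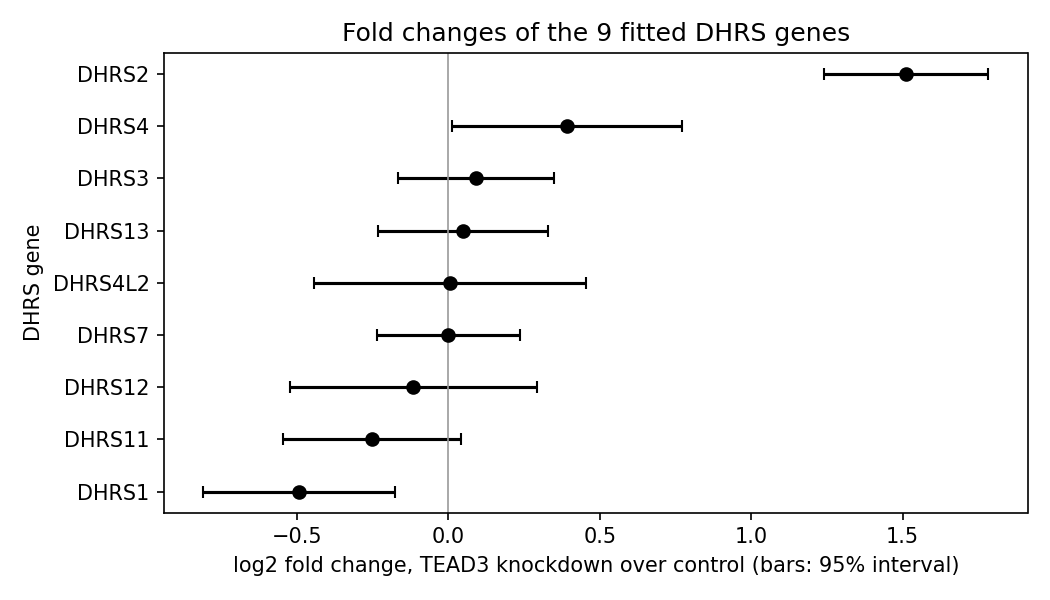
Log2 fold change of TEAD3 knockdown over control for the 9 DHRS genes that passed the filter on low counts, with unadjusted 95% intervals from the edgeR fit. DHRS2 lies at 1.51, every other member lies between -0.49 and 0.39, and 6 of the 9 intervals cover 0.

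Control replicate 2 had the highest control level for most members. Among the 9, control replicate 2 was the highest control for 7, all but DHRS2 and DHRS7, whereas it was the highest control for 38.3% of all genes tested. Knockdown replicate 2 was the lowest knockdown library for 6 of the 9, and for 35.2% of all genes tested. The part of base composition in these levels was not tested beyond a correction for transcript length and GC content, under which DHRS2 was at 1.61 and DHRS1 at -0.48 on the log2 scale. With that correction DHRS4 was at 0.28, DHRS3 at 0.01 and DHRS13 at -0.03.

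Per length, DHRS2 held a higher place in the family in the knockdown than in the controls. Levels between genes are compared as CPM per kilobase of exon in the GENCODE 29 basic set. Ranks, and shares of the family sum, depend on that length. It is 1727 bases for DHRS2, whose longest GENCODE 29 transcript has 5318 bases, and other members differ between these measures too. Ranks and shares by longest transcript were not computed, so the place of DHRS2 holds for the basic set only. DHRS3 and DHRS7 were the most abundant members in both groups, at 32.5 ± 3.17 and 27.6 ± 2.56 CPM per kb in the knockdown and at 30.6 ± 3.21 and 27.6 ± 1.84 CPM per kb in the controls. They differed from each other by little more than the spread between libraries. DHRS2 ranked 3 in the knockdown, at 21.0 ± 2.27 CPM per kb, and 6 in the controls, at 7.37 ± 0.286 CPM per kb, where DHRS13 (7.59 ± 0.639) and DHRS4 (6.41 ± 1.20) were within its reach. In the knockdown DHRS2 stood next to DHRS1 (16.8 ± 2.65 CPM per kb) and DHRS11 (15.1 ± 1.36 CPM per kb). DHRS4L2 and DHRS12 were low in both groups, at 2.84 ± 0.487 and 2.15 ± 0.293 CPM per kb in the knockdown and at 2.83 ± 0.509 and 2.33 ± 0.236 CPM per kb in the controls.

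Summed over the 10 genes, family transcript was at 139, 131 and 134 CPM per kb in the knockdown, against 122, 140 and 118 CPM per kb in the controls. The 2 groups overlapped, with control replicate 2 above every knockdown library. DHRS2 made up 13.5%, 16.2% and 17.4% of that sum in knockdown replicates 1 to 3, against 6.14%, 5.04% and 6.44% in control replicates 1 to 3. DHRS1 made up 12.5 ± 2.22% of it in the knockdown and 18.7 ± 0.979% in the controls (SD, n = 3 each). Without DHRS2 the sum was 113 ± 5.73 CPM per kb in the knockdown and 119 ± 11.9 CPM per kb in the controls.

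**Figure D3:**
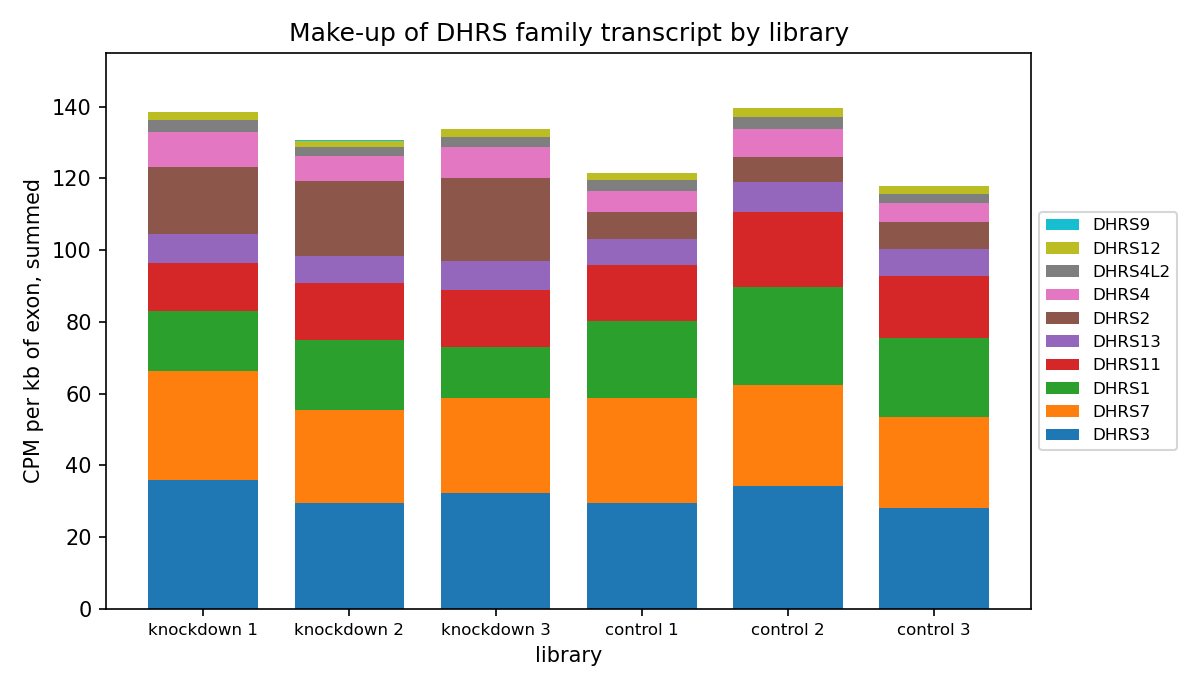
Stacked CPM per kilobase of exon of the 10 DHRS genes in each library, TEAD3 knockdown on the left and controls on the right. The DHRS2 segment covers 13.5% to 17.4% of the bar in the knockdown and 5.04% to 6.44% in the controls, while the whole bars overlap in height between the groups.

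Other genes that carry or once carried a DHRS name did not pass the test. Of 9 identifiers, 7 were tested, 0 were called by edgeR, where 0.655% of all genes tested were. DESeq2 called 1 higher, HSD17B14, and 6.11% of the 14274 genes to which it gave an adjusted p. Before adjustment, edgeR had 1 higher and 1 lower at p under 0.05, a level passed by 15.6% of all genes tested, and the median log2 fold change was 0.02. HSD17B14, formerly DHRS10, a steroid dehydrogenase, was at 57.0, 42.3 and 52.7 CPM in the knockdown, against 30.1, 42.0 and 27.9 CPM in the controls. Knockdown replicate 2 and control replicate 2 all but met (log2 fold change 0.60, edgeR adjusted p = 0.127). Leaving out control replicate 2 brought a call (0.80, edgeR adjusted p = 0.0275), in a fit that called 589 of 18490 genes. No other omission of a single library did, with edgeR adjusted p for HSD17B14 between 0.122 and 0.412. BDH2, formerly DHRS6, a cytosolic hydroxybutyrate dehydrogenase, differed by 0.14 on the log2 scale (edgeR adjusted p = 0.573), and DHRS7B, the closest relative of DHRS7 by name, by 0.02 (0.963). DHRS7C and 1 of the 2 identifiers named DHRS4L1 had no count, and the other was at 0.466 CPM or less in every library.

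The wider short-chain dehydrogenase/reductase family gave no edgeR call either. Of 52 other genes, 41 were tested, with 21 above and 20 below 0 and a median log2 fold change of 0.01. Called genes numbered 0 by edgeR and 4 by DESeq2, all higher: HSD17B10, RDH10, TGDS and BLVRB. Over all genes the shares called were 0.655% by edgeR and 6.11% by DESeq2. Before adjustment, edgeR's p was under 0.05 for 8 higher and 1 lower of the 41. Among all 17723 genes tested it was so for 1444 higher and 1317 lower, 15.6% together. The split by direction in this list was not tested. BLVRB, biliverdin reductase B, was at 167, 134 and 146 CPM in the knockdown, against 101, 116 and 110 CPM in the controls, with every knockdown library higher. The log2 fold change of BLVRB was 0.45 (edgeR adjusted p = 0.0995). Leaving out control replicate 2 gave a call (0.49, edgeR adjusted p = 0.0441), in a fit that called 589 of 18490 genes. With any other single library left out, BLVRB was not called (edgeR adjusted p between 0.111 and 0.366). HSD17B10, a mitochondrial enzyme that is also a subunit of RNase P, had 0.36 (edgeR adjusted p = 0.157), and HSD17B4, of peroxisomal beta-oxidation, had -0.16 (0.501).

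Among 34 other genes of retinoid uptake, metabolism and signalling, 23 were tested and 0 were called by edgeR. Before adjustment 1 was higher and 1 lower with edgeR p under 0.05, DESeq2 called 1 higher, RDH10, and the median log2 fold change was 0.01. Over all genes, edgeR called 0.655% and DESeq2 6.11%, and 15.6% had edgeR p under 0.05 before adjustment. The list shares the tested genes RDH10, RDH11, RDH13 and RDH14 with the wider family above, so RDH10 is counted in both. Nothing is read from the counts of this list. RDH10, a retinol dehydrogenase that makes retinaldehyde and so runs opposite to DHRS3, is named here after its values were seen. It was at 25.6, 17.4 and 21.2 CPM in the knockdown, against 13.3, 11.2 and 13.4 CPM in the controls. All knockdown libraries were above all controls, and the log2 fold change was 0.76 with SE 0.160 (edgeR adjusted p = 0.0668). RDH10 was called once length and GC were corrected for (0.84, edgeR adjusted p = 0.0199), in a fit that called 576 of 17505 genes. With single libraries left out it was not called (edgeR adjusted p between 0.0581 and 0.306). STRA6, the membrane receptor for retinol uptake, differed by -0.07 on the log2 scale (edgeR adjusted p = 0.834), ADH5, the glutathione-dependent formaldehyde dehydrogenase of the alcohol dehydrogenase family, had 0.01 (0.977), and RARB, a retinoic acid receptor, had -0.11 (0.697).

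MDM2, the ubiquitin ligase to which the DHRS2 product is known to bind, was at 42.9, 42.5 and 39.4 CPM in the knockdown, against 59.3, 43.2 and 58.5 CPM in the controls. Every knockdown library was below every control, but control replicate 2 lay just above them, and MDM2 was not called (log2 fold change -0.37, edgeR adjusted p = 0.215). Leaving out control replicate 2 made MDM2 a called gene (-0.50, edgeR adjusted p = 0.0275), in a fit that called 589 of 18490 genes. Leaving out any other single library did not, with edgeR adjusted p for MDM2 between 0.303 and 0.560. CDKN1A, an inhibitor of cyclin-dependent kinases, stood at -0.16 on the log2 scale (edgeR adjusted p = 0.561).

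**Figure D4:**
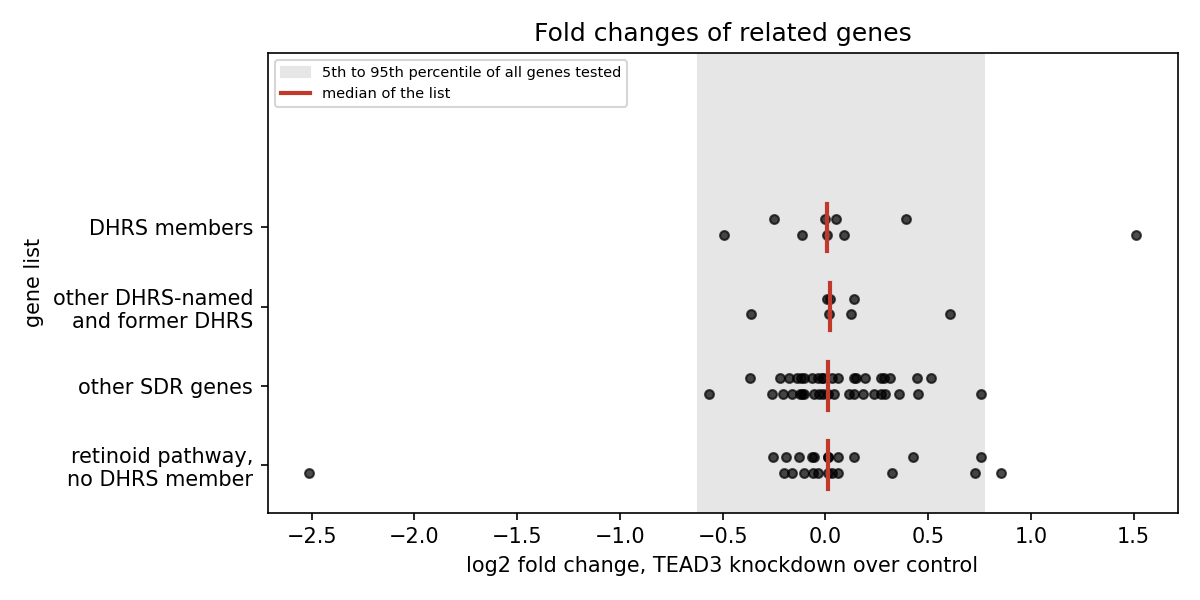
Log2 fold change of TEAD3 knockdown over control for each tested gene of the DHRS members and 3 lists of related genes, with the list median as a vertical line and the 5th to 95th percentile of all tested genes (-0.62 to 0.77) shaded. DHRS2, at 1.51, is the DHRS member outside the shaded range, and the 4 medians lie between 0.0052 and 0.02.

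DHRS2 lies on chromosome 14 from 23630115 to 23645639 on the plus strand (GRCh38, GENCODE 29). Within 250 kb of its start were 8 other tested genes, and 1 was lower with edgeR p under 0.05 before adjustment. Of the 8, edgeR called 0 and DESeq2 called 0, but DESeq2 gave MYH6 no adjusted p and so could not call it. These counts are near the shares over all genes, which were 0.655% and 6.11% called by these tools and 15.6% under 0.05 before adjustment, and are no result about the neighbours. The nearest, JPH4, which encodes a junctophilin, starts 51.3 kb away and stood at 0.24 on the log2 scale (edgeR adjusted p = 0.857). AP1G2, an adaptor subunit of vesicle traffic and the most abundant neighbour, was at 66.1, 90.1 and 87.6 CPM in the knockdown, against 76.1, 84.7 and 80.3 CPM in the controls (0.02, edgeR adjusted p = 0.976). AP1G2-AS1, ZFHX2, THTPA and ZFHX2-AS1 lay between -0.07 and 0.01, and NGDN was at 0.21 (edgeR adjusted p = 0.405).

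MYH6, a cardiac myosin heavy chain gene 222 kb away, was the neighbour with the lowest fold change. It had 1, 4 and 4 reads in the knockdown libraries, against 35, 38 and 20 reads in the controls. The groups did not overlap, but the counts were few, and MYH6 was not called (log2 fold change -3.40, edgeR adjusted p = 0.0857). Correcting for length and GC made it a called gene (-3.34, edgeR adjusted p = 0.0438), in a fit that called 576 of 17505 genes. No other alternative called MYH6. MYH7, a close paralog beside it, had 1, 0 and 0 reads in the knockdown libraries and 33, 24 and 1 reads in the controls and did not pass the filter, and the split of reads between these paralogs is uncertain.

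**Figure D5:**
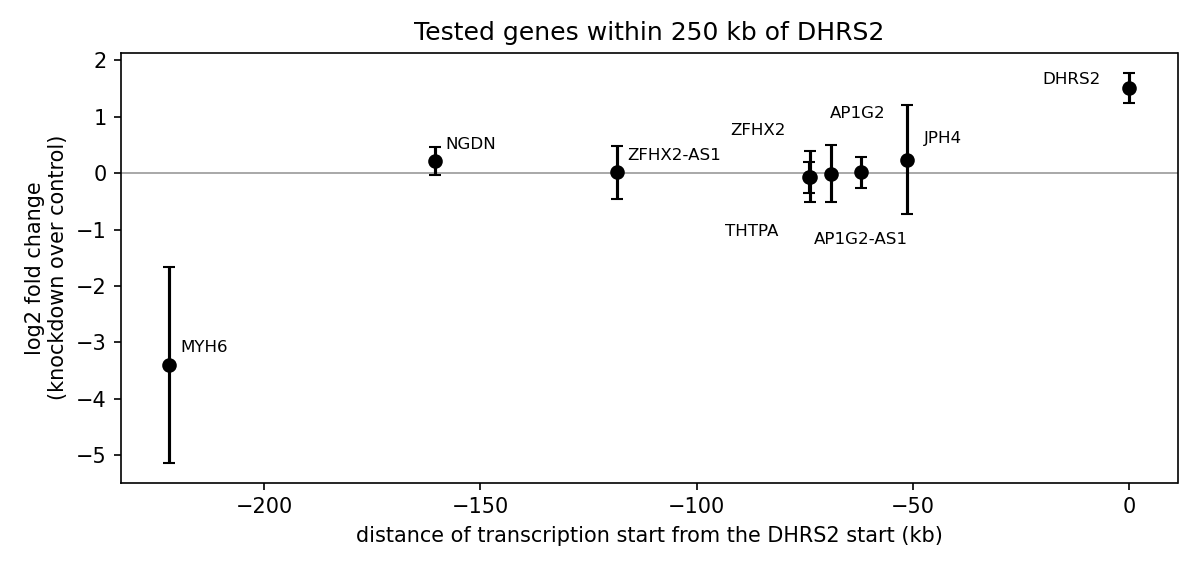
Log2 fold change of TEAD3 knockdown over control, with unadjusted 95% intervals, for the tested genes within 250 kb of DHRS2, placed by the distance of their start from the DHRS2 start in kb (negative is toward lower coordinates). DHRS2 is at 1.51, MYH6 is at -3.40 on few reads, and the other 7 lie between -0.07 and 0.24.

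The genes whose profile over the 6 libraries was most like that of DHRS2 were RGS2, SFTA1P, H1-2, NR1D1 and FILIP1L. Likeness was the root mean square difference in log2 CPM after each gene was centred on its own mean, among 10278 named genes whose average log2 CPM was 3 or more. It was 0.145 for RGS2, a regulator of G-protein signalling, 0.161 for the noncoding SFTA1P, 0.176 for the linker histone gene H1-2, 0.203 for NR1D1, which encodes the circadian repressor REV-ERB alpha, and 0.215 for FILIP1L. The median over all candidates was 0.775. The log2 fold changes of these 5 lay between 1.31 and 1.63, and since they were chosen for likeness to DHRS2 no test is given.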

How the data were processed

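Raw whole-number counts, 1 column per library and unscaled, are what the authors deposited. The submitters' processing notes list cutadapt 1.9, HISAT2 2.0.4 and StringTie 1.3.4d beside DESeq2 and edgeR, and the build GRCh38. Which tool produced the counts, on which annotation, with which strand setting and with what rule for multiply mapping reads is not given in the sources used here. Per the labels' protocols, libraries came from oligo(dT)-selected RNA with dUTP strand marking.

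Symbols matched 60401 of 60612 identifiers. edgeR 4.0.16 (R 4.3.3) was run on the counts with TMM scaling, filterByExpr (minimum 10 counts), group as sole term, a quasi-likelihood F test for change in either direction and Benjamini-Hochberg adjustment over 17723 genes. The procedure was tested on simulated counts. Alternatives were DESeq2 1.42.0, limma-voom 3.58.1, other scalings and filters, a replicate block, omission of each library, and loess offsets (span 0.3) for transcript length and GC. Whether replicate numbers pair libraries is not settled here. Correlations of same-numbered deviations lay between -0.0169 and 0.00828, and those of differently numbered ones between -0.0249 and 0.0188.

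The members and lists were chosen with earlier results of these data known. The genes named were the members, TEAD3, markers, any called gene of a list and its 3 most abundant uncalled ones, genes within 250 kb of DHRS2, and the 5 most like it. RDH10, DHRS4-AS1, TGDS and UXS1 were added after their values were seen. Sequences are from RefSeq tables on GRCh38.p14, which matched 9 of the 10 members, all but DHRS7. Other coordinates and overlaps are from GENCODE 29. Some genes of the lists are not reported here.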

Additional observations from a re-analysis of the deposited data

How the results depend on the processing

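Over the 15 alternatives run, the log2 fold change of DHRS2 stayed between 1.43 (without knockdown replicate 3) and 1.61 (length and GC correction); the gene was chosen on these counts, so this range describes one set of values reprocessed. DHRS1, DHRS4 and DHRS11 kept their direction in all of them. DHRS3 and DHRS12 did so too, but shrank to 0.0098 (length and GC correction) and -0.0048 (without knockdown replicate 2). The intervals of DHRS3, DHRS11 and DHRS12 include no difference, so their direction is not settled. The interval of DHRS4 (0.01 to 0.77) only just leaves it out, and that of the summed DHRS4 copies (-0.07 to 0.64) includes it. DHRS4L2 lay between -0.14 and 0.14 and DHRS7 between -0.08 and 0.05, so neither has a settled direction, and DHRS13 turned to -0.03 with the length and GC correction. DESeq2 called 2 members (DHRS1 and DHRS2, from which nothing is read), 4 other short-chain dehydrogenase/reductase (SDR) genes and 1 retinoid gene, beside 6.11% of all genes. The length and GC correction gave 3 SDR genes (RDH10 and BLVRB higher, UXS1 lower) and 1 retinoid gene, beside 576 of 17505 genes in all. In both settings the retinoid gene was RDH10, already counted among the SDR genes. Without single libraries, SDR calls ran from 0 to 2 (2 without control replicate 2, BLVRB among them). Genes called in all were 116, and 31 with no filter, 63 with the replicate block, 872 by DESeq2, 576 with the length and GC correction, and, without knockdown replicates 1, 2 and 3 in turn, 29, 73 and 20, and without control replicates 1, 2 and 3 in turn, 58, 589 and 43. Over the 15 alternatives the median log2 fold change lay between -0.031 and 0.048 for the SDR list and between -0.063 and 0.040 for the retinoid list, so neither has a settled sign. TEAD3 was not called with no filter (-1.56, edgeR adjusted p = 0.0639); without single libraries it ran from -1.80 to -1.37. Uncalled genes changed sign as follows: ADH5 (-0.023) and DHRS7B (-0.0023) with the length and GC correction, AP1G2-AS1 with upper-quartile scaling (0.00054), the replicate block (0.012), limma-voom (0.027) and the length and GC correction (0.028), and ZFHX2-AS1 with library size alone (-0.0015) and limma-voom (-0.0070). When single libraries were left out, the lowest and highest log2 fold changes were -0.055 and 0.060 for ADH5, -0.062 and 0.15 for AP1G2, -0.13 and 0.21 for AP1G2-AS1, -0.068 and 0.079 for DHRS7B, -0.029 and 0.67 for JPH4, -0.12 and 0.030 for STRA6, -0.15 and 0.033 for THTPA, -0.24 and 0.093 for ZFHX2 and -0.12 and 0.14 for ZFHX2-AS1. The cause of these changes was not tested. DHRS9 was too shallow to compare.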
